A study of Mus musculus with 24 samples.

Results

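The 10 genes of the brain endothelium and the blood-brain barrier followed here, in bulk RNA of the adult mouse hippocampus, were Slc2a1, Mfsd2a, Cldn5, Abcb1a, Slco1a4, Pecam1, Flt1, Kdr, Tek and Nostrin. They were taken by symbol, and all 10 of 10 were found among the 36605 genes of the deposited count table. The question was whether they moved together between genotypes, as a change in the endothelial share of the RNA would make them do, or whether Slc2a1, Mfsd2a and Nostrin moved on their own. The 24 hippocampi came from 4 genotypes with 3 females and 3 males each. Wild-type mice were Egr1wt Nes Cre-, with neither floxP sites in Egr1 nor the Cre transgene. Cre controls were Egr1wt Nes Cre+, floxed controls were Egr1f Nes Cre-, and Egr1cKO mice were Egr1f Nes Cre+. The Nestin promoter that drives Cre is active in neural precursors, so Egr1 was removed from cells of the neuronal and glial lineages and not, by design, from the endothelium. Each library was 1 mouse, and the p-values below measure the spread between mice.

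The endothelium of the brain differs from that of most organs: its cells are sealed to each other by tight junctions, carry out little transcytosis and bring nutrients across by dedicated transporters. Slc2a1 encodes GLUT1, the glucose transporter of the barrier, which astrocytes also make. Mfsd2a carries lysophosphatidylcholine lipids that hold docosahexaenoic acid into the brain and restrains transcytosis. Nostrin binds endothelial nitric oxide synthase and directs its traffic. Cldn5 is the main claudin of the tight junction, Abcb1a is the efflux pump P-glycoprotein and Slco1a4 is an organic anion transporter. Pecam1 is an adhesion molecule of all endothelium, Flt1 and Kdr are VEGF receptors 1 and 2, and Tek is the angiopoietin receptor.

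Slc2a1 (ENSMUSG00000028645) lies at chr4:119108711-119137983 on the plus strand and Mfsd2a (ENSMUSG00000028655) at chr4:122946850-122961188 on the minus strand of GRCm38, with 3.81 Mb between them. Nostrin (ENSMUSG00000034738) lies at chr2:69135800-69189330 on the plus strand. Counts are sums over each gene's exons. The exons of Slc2a1 overlap those of the antisense gene Gm12868, and the exons of Abcb1a overlap those of Gm42686. The libraries were not stranded, so reads of these overlapping genes cannot be told apart.

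The promoters of Slc2a1, Mfsd2a and Nostrin, the members the question turns on, are printed here with that of Flt1, whose window was the only one of a member to hold an EGR motif. Each is 300 bases, from 250 before to 50 after the start of the RefSeq gene (GRCm38.p6), 5′ to 3′ on the gene's own strand. Capitals mark matches to the EGR motif GCGNGGGCG, the hypoxia response core ACGTG or GCGTG and the TCF/LEF motif CTTTGA on either strand. The windows are chr4:119108495-119108794 for Slc2a1, chr4:122961139-122961438 for Mfsd2a, chr2:69135550-69135849 for Nostrin and chr5:147725962-147726261 for Flt1.
Slc2a1: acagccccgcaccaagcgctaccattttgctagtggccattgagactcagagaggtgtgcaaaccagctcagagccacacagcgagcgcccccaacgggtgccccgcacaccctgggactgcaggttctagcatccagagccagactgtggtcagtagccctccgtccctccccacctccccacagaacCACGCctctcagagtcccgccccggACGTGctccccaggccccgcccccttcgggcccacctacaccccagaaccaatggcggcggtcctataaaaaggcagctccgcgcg
Mfsd2a: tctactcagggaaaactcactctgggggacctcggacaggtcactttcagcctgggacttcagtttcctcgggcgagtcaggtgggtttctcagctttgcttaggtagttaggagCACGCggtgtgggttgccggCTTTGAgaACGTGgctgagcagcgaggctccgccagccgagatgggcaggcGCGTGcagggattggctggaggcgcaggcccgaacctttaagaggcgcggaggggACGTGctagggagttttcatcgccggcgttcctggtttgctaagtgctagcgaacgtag
Nostrin: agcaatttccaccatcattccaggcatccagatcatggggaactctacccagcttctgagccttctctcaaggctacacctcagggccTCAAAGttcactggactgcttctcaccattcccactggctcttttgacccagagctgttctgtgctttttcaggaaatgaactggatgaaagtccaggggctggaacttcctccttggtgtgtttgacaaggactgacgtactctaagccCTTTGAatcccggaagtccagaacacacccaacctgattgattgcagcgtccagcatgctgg
Flt1: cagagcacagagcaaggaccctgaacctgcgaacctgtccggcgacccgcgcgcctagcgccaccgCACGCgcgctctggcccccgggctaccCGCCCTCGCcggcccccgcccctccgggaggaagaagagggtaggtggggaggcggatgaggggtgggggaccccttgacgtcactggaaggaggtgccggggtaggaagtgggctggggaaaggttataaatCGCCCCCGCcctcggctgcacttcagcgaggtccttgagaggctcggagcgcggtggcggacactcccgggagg
Slc2a1 had 2 hypoxia cores and Mfsd2a had 4, with 1 TCF/LEF motif in Mfsd2a. Nostrin had 2 TCF/LEF motifs. Flt1 had 2 EGR motifs and 1 hypoxia core. Of 32851 RefSeq promoter windows of this length, 43.8% held a hypoxia core, 16.0% a TCF/LEF motif and 5.55% an EGR motif. The glucocorticoid receptor motif, held by 0.475% of the windows, was found in none of the 9 members with a window (Pecam1 had none in the table). A match of letters is a description and not a bound site.

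Across the 24 mice all 10 members were detected in every mouse, with the fewest reads for Nostrin, at 27 to 176 counts a mouse. Levels per kilobase of exon (RPKM, mean ± SD, n = 24) put Slc2a1 first at 18.4 ± 5.39, followed by Cldn5 at 14.2 ± 4.65, Mfsd2a at 9.65 ± 2.14, Slco1a4 at 6.13 ± 1.37 and Abcb1a at 3.94 ± 1.13. Below these stood Flt1 at 3.38 ± 0.971, Tek at 2.52 ± 0.483, Pecam1 at 2.1 ± 0.461, Nostrin at 1.64 ± 0.715 and Kdr at 1.21 ± 0.376. Neighbours in this order overlapped within 1 SD except Mfsd2a and Slco1a4. Nostrin varied most between mice, with a coefficient of variation of 43.6%, and Tek least, with 19.2%.

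Library totals were 18025168 to 34955004 counts, with a median of 22743950.5. Egr1 stood at 4.86 to 10.2 CPM (counts scaled to a common library size) in the 6 Egr1cKO mice and at 47.7 to 149 CPM in the other 18, as the labels of the knockout have it. The labels give the cell type as endocrine, but pituitary hormone markers summed to at most 3.84 CPM while hippocampal neuron markers summed to 2070 to 3110 CPM. In 5 mice the choroid plexus markers summed to more than 5 times the median of the series, and the only female among them was Cre control 1, at 2096 CPM. The mouse numbers of Egr1wt and Egr1f animals form separate ranges, so floxP sites and the series of mice cannot be told apart.

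To see how much endothelial RNA each hippocampus held, the mean log2 CPM of 22 pan-endothelial genes outside the 10 members, among them Cdh5, Tie1, Egfl7 and Cd93, was taken as the endothelial reference level. It was 2.90 ± 0.31 in wild-type mice, 3.00 ± 0.26 in Cre controls, 3.19 ± 0.14 in floxed controls and 3.26 ± 0.05 in Egr1cKO mice (SD, n = 6). The mice fell into 2 clusters: 5 mice stood at 2.58 to 2.69 and the other 19 at 3.01 to 3.34. All 5 low mice were Egr1wt, namely wild-type females 1 and 3, wild-type male 1, Cre-control female 2 and Cre-control male 3, while 7 Egr1wt mice stood within the range of the Egr1f mice. In bulk RNA fewer endothelial cells and less RNA per endothelial cell cannot be told apart. No test was run on this level.

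The members did not all go with this level in the same way. In the 5 low mice Flt1 stood at 23.5 to 30.3 CPM, below each of the other 19 mice at 34 to 68.2 CPM, and Slco1a4 was likewise lower without overlap. Mfsd2a was at 17.4 to 24.5 CPM in the 5 low mice, inside the 13.2 to 31.5 CPM of the other 19. Slc2a1 was at 38.4 to 58.8 CPM against 46.3 to 115 CPM and Nostrin at 1.07 to 4.17 CPM against 1.37 to 7.46 CPM, with overlap for both. Cldn5, Abcb1a, Pecam1, Kdr and Tek overlapped between the low mice and the others as well. Within the 19 mice no member's correlation with the reference level passed the adjusted threshold of 0.05 over the 10 members. Pearson's r was 0.549 for Nostrin (rho 0.52, two-sided permutation p = 0.0143, adjusted 0.143), and without the 2 mice farthest from the median it was 0.38. For Flt1 r was 0.434, for Slco1a4 0.429, for Pecam1 0.387 and for Slc2a1 0.322. It was 0.294 for Cldn5, 0.24 for Kdr, 0.224 for Mfsd2a, 0.216 for Abcb1a and 0.0928 for Tek. Over all 24 mice, the planned set, r was 0.855 for Flt1, 0.831 for Slco1a4, 0.812 for Pecam1, 0.747 for Abcb1a and 0.734 for Cldn5. It was 0.693 for Kdr, 0.67 for Tek, 0.627 for Slc2a1, 0.354 for Nostrin and 0.262 for Mfsd2a. All but Nostrin and Mfsd2a passed the adjusted threshold of 0.05 in the permutation test. These values rest on the gap between the 2 clusters, whose 5 low mice are all Egr1wt.

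**Figure D1:**
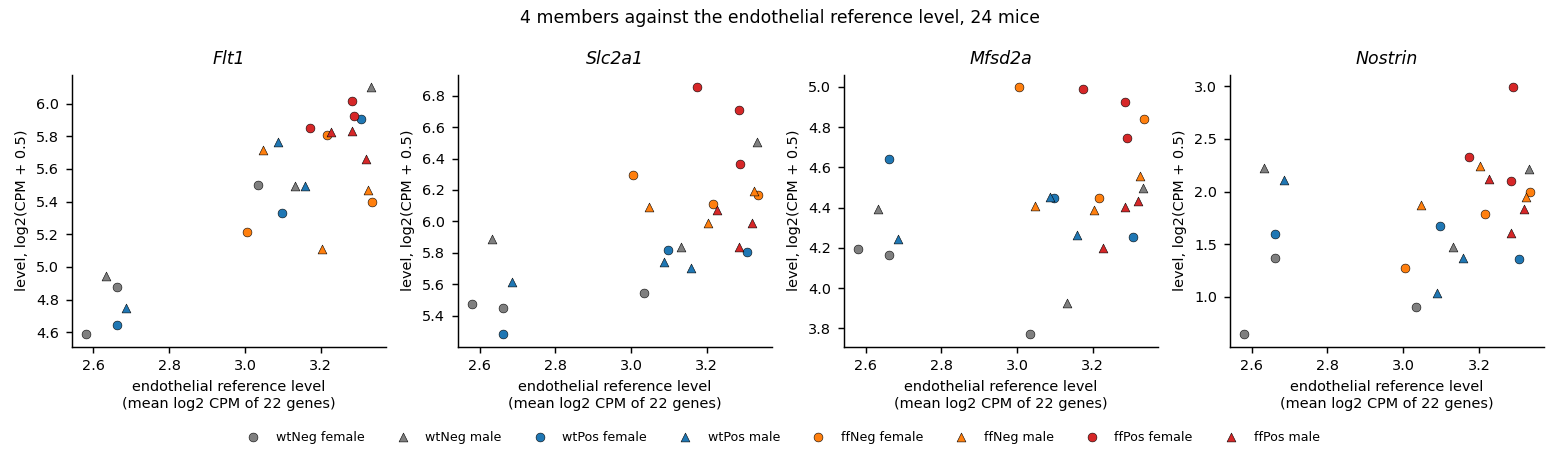
Log2(CPM + 0.5) of Flt1, Slc2a1, Mfsd2a and Nostrin (vertical axes) against the endothelial reference level, the mean log2 CPM of 22 other endothelial genes (horizontal axis), 1 point a mouse, by genotype (wtNeg wild type, wtPos Cre control, ffNeg floxed control, ffPos Egr1cKO) and sex. The 5 mice at 2.58 to 2.69 hold the lowest Flt1 values, while their Mfsd2a and Nostrin values lie among those of the other 19 except for 1 low Nostrin value.

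The correlations between members within the 19 mice, after removing the mean of each sex, differed between Slc2a1, Mfsd2a and Nostrin and the rest. Among these 3 genes r was 0.771 for Slc2a1 and Mfsd2a, 0.712 for Slc2a1 and Nostrin and 0.508 for Mfsd2a and Nostrin. With the 7 others the median r was 0.0961 for Slc2a1, 0.123 for Nostrin and -0.16 for Mfsd2a, but Nostrin and Pecam1 had r = 0.533, above that of Nostrin and Mfsd2a. The pairs among the 7 others had a median of 0.514, from -0.163 to 0.847, and the closest pair was Abcb1a and Flt1. Cldn5 stood outside that block, with r of -0.163 to 0.4 with the other 6, and had r = -0.606 with Slc2a1. These are descriptions over mice of 4 genotypes that share their scaling. The means of the genotypes were not removed, so differences between genotypes that genes share enter these values. Slc2a1, Mfsd2a and Nostrin were set apart with earlier results of these data known, so their split from the rest is not a test.

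**Figure D2:**
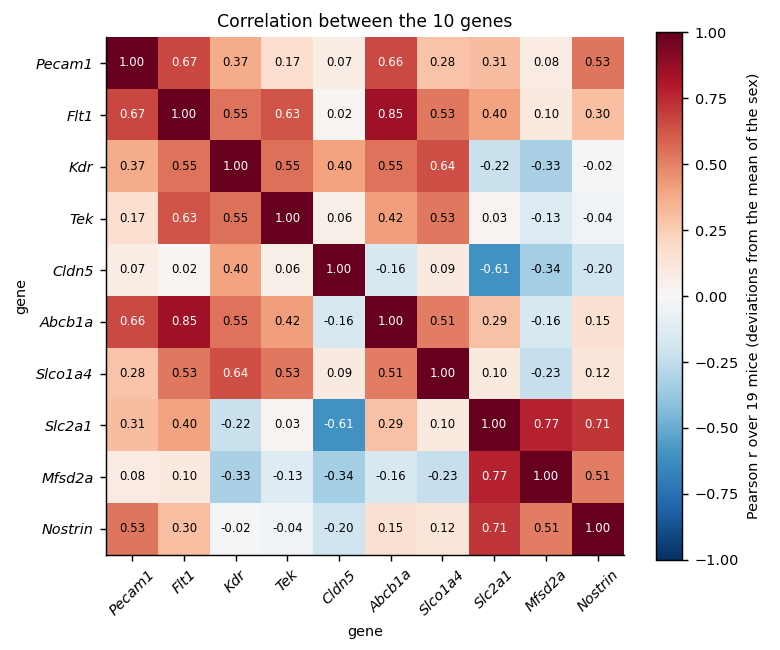
Pearson's r between each pair of the 10 members over the 19 mice of the upper cluster, from log2 levels with the mean of each sex removed, as a colour scale from -1 to 1 with the values printed. Slc2a1, Mfsd2a and Nostrin reach 0.508 to 0.771 with each other and -0.606 to 0.533 with the 7 others.

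The most similar genes, out of 15117 with a mean of at least 1 CPM, were ranked by Pearson's r over all 24 mice. The log2 levels had the mean of each sex removed. These genes are given with no test, and the 5 low mice are among the 24. Pecam1 went most closely with Tns1 (r = 0.874), its fellow member Flt1 (0.871), Adgrl4 (0.869), Ccdc141 (0.861) and Cyyr1 (0.858), and Adgrl4 is a reference gene of the endothelium. The nearest to Slc2a1 were Notch4 (r = 0.853), a Notch receptor of endothelium, Fmo2 (0.822), Sez6l2 (0.776), Xdh (0.774) and Tinagl1 (0.773). Mfsd2a had Htra1 (r = 0.826), Ssbp3 (0.794), Kirrel2 (0.766), Smox (0.754) and Mc4r (0.746) nearest to it. Nostrin had Klhl25 (r = 0.723), Pgrmc2 (0.718), Ccdc117 (0.697), Dnajb1 (0.69) and Ccdc92 (0.678).

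**Figure D3:**
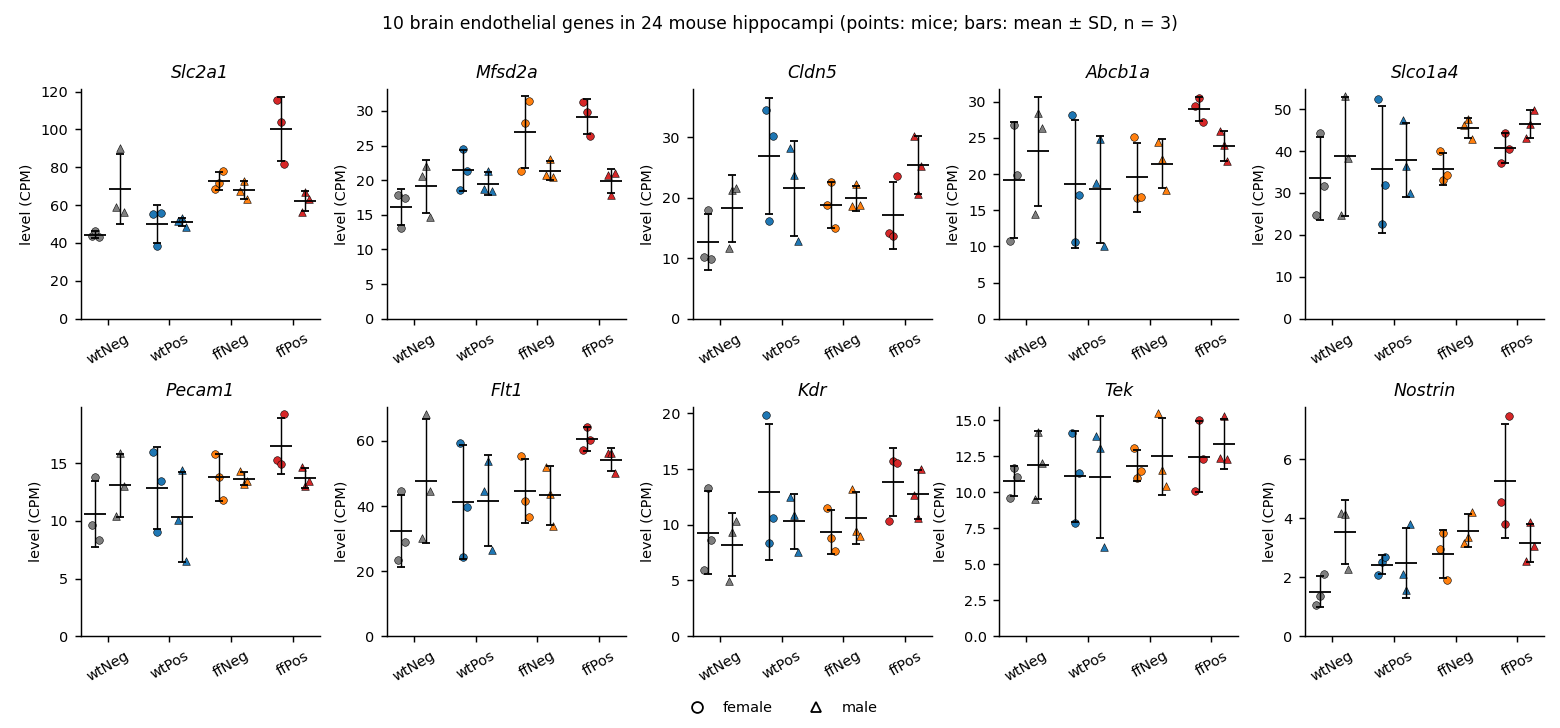
CPM of each of the 10 members (vertical axes, each from 0) in every mouse by genotype, with females and males marked separately and the mean ± SD of each group of 3. Slc2a1 in females steps from a mean of 44.4 in wild-type mice to 72.7 in floxed controls and 100 in Egr1cKO mice, while in males the 4 means lie between 51 and 68.5.

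The first comparison set floxed controls against wild-type mice, neither of which carries Cre, and asked what floxP sites, or the series of mice that bears them, went with. In females Slc2a1 stood at 43.9, 46.3 and 43.2 CPM in the wild-type mice and at 68.6, 71.5 and 78.1 CPM in the floxed controls. The groups did not overlap and the difference was several times the spread within either. Slc2a1 was 1.64-fold higher (log2FC 0.71, SE 0.09, 95% interval 0.52 to 0.90, adjusted p = 0.0448 with edgeR's quasi-likelihood test and Benjamini-Hochberg adjustment over all genes). It was the only member called of 10, where 0.0113% of all genes were called, with calls set at a change of 1.2-fold or more whose adjusted p did not exceed 0.05. Without 1 mouse, edgeR's adjusted p ranged from 0.00251 to 0.295 and the call held only without floxed control 1, a setting in which 6.18% of all genes were called, while log2FC stayed between 0.66 and 0.75. The call was also lost in 1 fit of all 24 mice (edgeR adjusted p = 0.628) and with the replicate number as a block (edgeR adjusted p = 0.0901). DESeq2 gave an adjusted p of 8.99e-08 and also called Mfsd2a, beside 0.315% of its genes.

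Mfsd2a in the same females stood at 17.8, 13.2 and 17.4 CPM in wild-type mice and at 21.3, 28.2 and 31.5 CPM in floxed controls, again without overlap. Its log2FC was 0.74 (SE 0.16) and did not pass the test (edgeR adjusted p = 0.412). Nostrin stood at 1.07, 1.37 and 2.09 CPM against 2.95, 3.5 and 1.92 CPM, with 1 floxed mouse inside the range of the wild-type mice (log2FC 0.89, SE 0.35, edgeR adjusted p = 0.535). No overlap, with the floxed mice above, was seen for 2 of 10 members, Slc2a1 and Mfsd2a, and for 6.88% of all genes. An unadjusted p of at most 0.05 with a higher level was reached by 5 members, the other 3 being Cldn5 (log2FC 0.57), Flt1 (0.47) and Nostrin, and by 4.8% of all genes. The remaining 5 members, Pecam1 (0.38), Tek (0.14), Slco1a4 (0.10), Abcb1a (0.04) and Kdr (0.02), also had positive estimates. The median log2FC of the 10 members was 0.43.

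The endothelial reference genes were higher in the same comparison. Of the 22, 21 had a positive log2FC and 10 reached an unadjusted p of 0.05, all upward, with a median log2FC of 0.60, and edgeR called none. In females the reference level was 2.76 ± 0.24 in wild-type mice and 3.19 ± 0.17 in floxed controls (SD, n = 3). Wild-type female 2 was not among the low mice, with a reference level of 3.03. It had 44.8 CPM of Flt1, inside the range of the floxed controls, and 46.3 CPM of Slc2a1 and 13.2 CPM of Mfsd2a, below each of them. Its Mfsd2a was the lowest of all 24 mice, and 1 mouse gives a description only. Set against the reference level of the same mouse, Slc2a1 was 0.28 higher in floxed controls on the log2 scale, Mfsd2a 0.29 and Nostrin 0.28, with overlapping groups for each. With the reference level as a covariate in the edgeR fit, the 7 other members, all positive before, became negative (median log2FC from 0.14 to -0.22), while Slc2a1 stayed at 0.71 (SE 0.15) and Mfsd2a at 1.13 (SE 0.23). Nostrin was 0.50 (SE 0.62) in that fit. None of these passed with the covariate in 6 mice (edgeR adjusted p = 0.288 for Slc2a1, 0.256 for Mfsd2a and 0.88 for Nostrin), and the covariate is set largely by wild-type females 1 and 3.

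**Figure D4:**
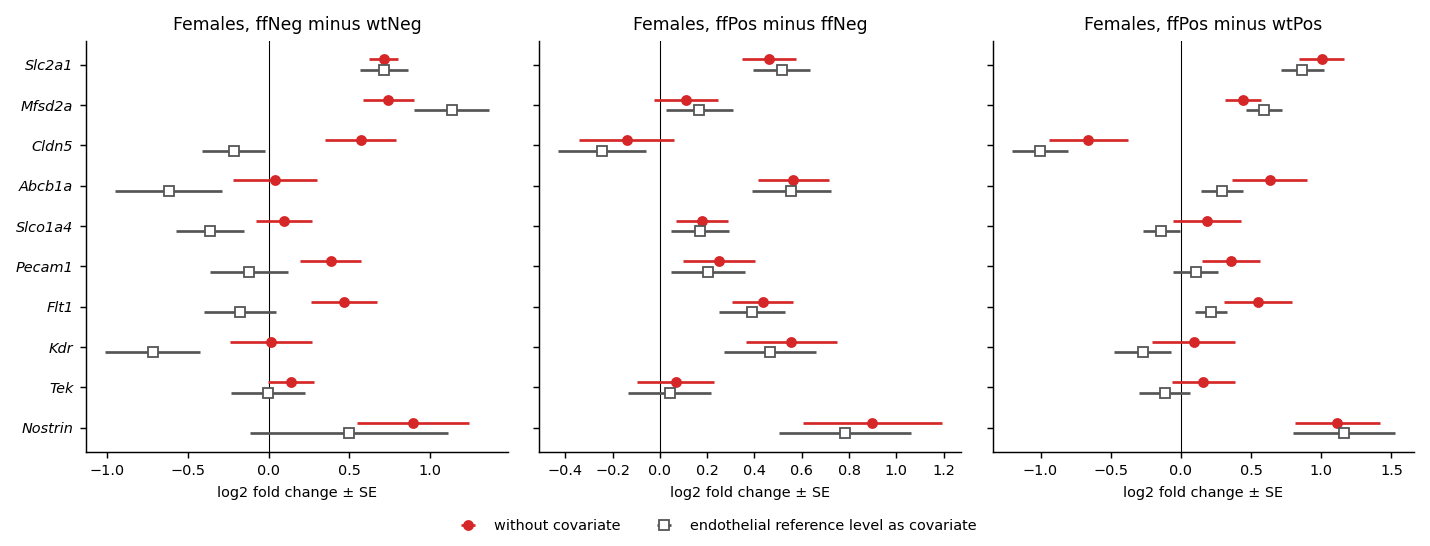
Log2 fold change with its SE for the 10 members in 3 comparisons of females (floxed controls against wild-type mice, Egr1cKO mice against floxed controls, Egr1cKO mice against Cre controls), from edgeR fits without and with the endothelial reference level as a covariate. For floxed controls against wild-type mice the 7 other members shift from above 0 to below 0 with the covariate, and Slc2a1 stays at 0.71.

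In males no member passed the test in this comparison. Slc2a1 stood at 58.8, 90.2 and 56.6 CPM in wild-type males and at 67.6, 72.7 and 63.1 CPM in floxed controls, with overlapping groups (log2FC -0.02, 95% interval -0.36 to 0.31, edgeR adjusted p = 0.996). Without wild-type male 2, the highest of these values, the log2FC was 0.23. No member was called in males by edgeR or DESeq2, none reached an unadjusted p of 0.05, as 2.74% of all genes did, and 0% of all genes were called. The log2FC was 0.15 for Mfsd2a and 0.01 for Nostrin, and the median over the members was 0.06. The difference between the sexes was 0.73 for Slc2a1 (SE 0.19), 0.58 for Mfsd2a (SE 0.24) and 0.88 for Nostrin (SE 0.45), and edgeR's adjusted p was 1 for each. No member was called for this difference by edgeR or DESeq2, 2 reached an unadjusted p of 0.05 beside 3.34% of all genes, and 0% of all genes were called.

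With both sexes in the fit, Slc2a1 had a log2FC of 0.34 (SE 0.13), Mfsd2a 0.45 (SE 0.14) and Nostrin 0.43 (SE 0.24), at an edgeR adjusted p of 0.524, 0.524 and 0.551. No member was called, 2 reached an unadjusted p of 0.05 beside 9.42% of all genes, DESeq2 called none, and edgeR called 0% of all genes. In this fit 9 of 10 members and 20 of 22 reference genes had positive estimates, with medians of 0.21 and 0.33.

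The second comparison, Cre controls against wild-type mice, showed what Cre went with in the absence of floxP sites. With both sexes Cldn5 had the largest estimate of the members (log2FC 0.66), and in males it was 0.24. In females it stood at 10.3, 18 and 9.84 CPM in wild-type mice and at 34.5, 16.1 and 30.2 CPM in Cre controls. One Cre control lay inside the wild-type range, and the log2FC of 1.09 (SE 0.30) did not pass (edgeR adjusted p = 0.587), although DESeq2 called it, beside 0.697% of its genes. The highest value was that of the female whose choroid plexus markers summed to 2096 CPM, and the part of such tissue in it was not tested. Slc2a1 overlapped between the groups in females (55.4, 38.4 and 56.0 CPM in Cre controls) and was lower without overlap in Cre-control males, at 51.6, 53 and 48.5 CPM (log2FC -0.43, SE 0.16, edgeR adjusted p = 1). Mfsd2a was higher without overlap in Cre-control females, at 18.6, 24.5 and 21.3 CPM (log2FC 0.42, SE 0.15, edgeR adjusted p = 0.636). Groups without overlap, in either direction, were seen for 14.3% of all genes in females and 6.19% in males, so 1 of 10 members is near that share. EdgeR called no member in females, males or both sexes, and 0% of all genes in each. At an unadjusted p of 0.05 there were 2, 1 and 1 members, beside 7.45%, 1.84% and 6.13% of all genes. DESeq2 called 1, 0 and 0.

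The next comparison, Egr1cKO mice against floxed controls, was made between mice that share floxP sites and differ in the Cre transgene and, through it, in Egr1. In females Slc2a1 stood at 115, 104 and 81.9 CPM in the knockouts, all above the 68.6 to 78.1 CPM of the floxed controls. Its log2FC was 0.46 (SE 0.11, 95% interval 0.22 to 0.71) and missed the threshold (edgeR adjusted p = 0.0734). Abcb1a stood at 29.4, 30.5 and 27.2 CPM in the knockouts against 25.1, 16.7 and 16.8 CPM (log2FC 0.56, SE 0.15, edgeR adjusted p = 0.0841). Flt1 stood at 57.2, 64.4 and 60.2 CPM against 55.5, 41.6 and 36.6 CPM (log2FC 0.43, SE 0.13, edgeR adjusted p = 0.109).

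Nostrin had the largest estimate of the members in these females, at 4.53, 3.79 and 7.46 CPM in the knockouts against 2.95, 3.5 and 1.92 CPM (log2FC 0.90, SE 0.29, edgeR adjusted p = 0.134). Mfsd2a overlapped between the groups, at 31.2, 29.9 and 26.4 CPM against 21.3 to 31.5 CPM (log2FC 0.11, 95% interval -0.18 to 0.40), and Cldn5 had a log2FC of -0.14. The 4 members Slc2a1, Abcb1a, Flt1 and Nostrin were above the floxed controls without overlap, as were 11.9% of all genes. EdgeR called 0 of 10 members and 0.288% of all genes. At an unadjusted p of 0.05 there were 5 members and 18.4% of all genes. DESeq2 called 3 members, Slc2a1, Abcb1a and Flt1, and 5.28% of the genes to which it gave an adjusted p. Without floxed control 1 edgeR called 5 members (Slc2a1, Abcb1a, Flt1, Kdr and Nostrin), beside 16.1% of all genes.

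The reference level was 3.25 ± 0.07 in female knockouts and 3.19 ± 0.17 in female floxed controls (SD, n = 3), and 12 of 22 reference genes had a positive log2FC, with a median of 0.06. The median of the 10 members was 0.34. Relative to the reference level of the same mouse, Nostrin was 0.73 higher in the knockouts on the log2 scale, without overlap, and Slc2a1 0.39 higher, with overlap. Abcb1a (0.52) and Flt1 (0.40) were also higher without overlap, and Kdr (0.48) with overlap. Pecam1 (0.19), Slco1a4 (0.12) and Mfsd2a (0.06) had smaller positive differences, while Cldn5 (-0.22) and Tek (-0.0046) were negative. The share of all genes without overlap on this relative scale was not computed. On CPM 22.1% of all genes did not overlap in this comparison, in either direction. With the reference level as a covariate 6 of the 7 other members stayed positive, as without it, and their median log2FC went from 0.25 to 0.20.

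In males no member passed the test between knockouts and floxed controls. Slc2a1 stood at 56.6, 67.0 and 63.1 CPM in Egr1cKO males against 67.6, 72.7 and 63.1 CPM (log2FC -0.12, 95% interval -0.36 to 0.12, edgeR adjusted p = 0.954), and Nostrin had a log2FC of -0.17 (95% interval -0.76 to 0.42). EdgeR and DESeq2 called no member in males, 1 reached an unadjusted p of 0.05 beside 3.04% of all genes, and 0.00569% of all genes were called. The difference between the sexes was 0.58 for Slc2a1 (SE 0.17) and 1.08 for Nostrin (SE 0.41), both at an edgeR adjusted p of 0.999. No member was called for it by either tool, 2 reached an unadjusted p of 0.05 beside 4.22% of all genes, and 0% of all genes were called. With both sexes edgeR called no member and 0.0221% of all genes. An unadjusted p of 0.05 was reached by 3 members and 15.8% of all genes, and DESeq2 called no member. Without floxed male 1 edgeR called Flt1, beside 1.77% of all genes.

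The last comparison of genotypes, Egr1cKO mice against Cre controls, contrasts groups that both carry Cre and differ in floxP sites, Egr1 and the series of mice. In females the Slc2a1 values of 115, 104 and 81.9 CPM in the knockouts stood against 55.4, 38.4 and 56.0 CPM, so each knockout was above each Cre control. Slc2a1 rose, with a log2FC of 1.00 (SE 0.16, 95% interval 0.65 to 1.36, edgeR adjusted p = 0.0179). It was the only member called of 10, and 1.81% of all genes were called. Without 1 mouse log2FC was between 0.85 and 1.13 and edgeR's adjusted p between 0.000854 and 0.112. The call held without each Cre control, was lost without each knockout, and was lost with the replicate number as a block (edgeR adjusted p = 0.0744). Without Cre control 1, the female with choroid plexus RNA, 4 members were called (Slc2a1, Abcb1a, Slco1a4 and Flt1), beside 7.49% of all genes.

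Nostrin was higher without overlap in these females (log2FC 1.12, SE 0.30, edgeR adjusted p = 0.092), as was Mfsd2a (log2FC 0.44, SE 0.13, edgeR adjusted p = 0.114). DESeq2 called both, with Slc2a1, beside 6.83% of its genes. These 3 members and 13.2% of all genes were above the Cre controls without overlap. Cldn5 had a negative estimate (14.2, 13.6 and 23.5 CPM in knockouts, log2FC -0.66, SE 0.28, edgeR adjusted p = 0.257). Of the reference genes 19 of 22 were positive with a median of 0.16. Relative to the reference level, Slc2a1 was 0.78 higher in the knockouts on the log2 scale, without overlap, and Nostrin 0.71 higher, with overlap. Flt1 (0.41) was also higher without overlap, Abcb1a (0.50) higher with overlap, and Cldn5 (-0.84) lower without overlap. Mfsd2a (0.21), Pecam1 (0.15), Slco1a4 (0.04), Tek (-0.05) and Kdr (-0.06) overlapped. No share over all genes was computed on this relative scale, and on CPM 24.1% did not overlap, in either direction. With the reference level as a covariate Slc2a1 was at 0.87 (edgeR adjusted p = 0.0181) and Mfsd2a at 0.59 (edgeR adjusted p = 0.0356), Cldn5 fell by 1.00 (edgeR adjusted p = 0.0248), and 2.94% of all genes were called. In that fit 3 of the 7 other members were positive, against 6 without the covariate. The covariate in these females is set largely by Cre-control female 2, at 2.66, with the others at 3.10 to 3.31.

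In males the 10 members all had positive estimates in this comparison, with a median of 0.31, and Slc2a1 was higher without overlap (log2FC 0.29, SE 0.11, edgeR adjusted p = 1). With the covariate the 7 other members went from all positive (median 0.32) to all negative (median -0.14). Cre-control male 3 largely sets the covariate in these males, at 2.69, with the others at 3.09 to 3.32. EdgeR called no male member and 0.00575% of all genes. An unadjusted p of 0.05 was reached by 1 member and 2.59% of all genes, and DESeq2 called no member. Whether females and males differed here was not tested. With both sexes Slc2a1 had a log2FC of 0.65 (SE 0.14, edgeR adjusted p = 0.357). It was the 1 member whose knockouts were all above the Cre controls, a pattern of 0.134% of all genes. EdgeR called no member and 0.00558% of genes. An unadjusted p of 0.05 was reached by 6 members and 12.1% of all genes, and DESeq2 called Slc2a1 and 0.135% of its genes. Without Cre control male 2, edgeR called Slc2a1 (adjusted p = 0.018), beside 4.33% of all genes.

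The 4 comparisons share groups: wild-type mice serve in those for floxP and for Cre, floxed controls in those for floxP and for Egr1cKO, Cre controls in those for Cre and for Egr1cKO, and the knockouts in both comparisons of Egr1cKO. A low or high group therefore enters 2 of them, and their results are not separate evidence. A factorial edgeR fit of all 24 mice, with floxP, Cre, their interaction and sex, gave for floxP a log2FC of 0.50 for Slc2a1 (SE 0.12), 0.35 for Mfsd2a (SE 0.09) and 0.59 for Nostrin (SE 0.21), each at an adjusted p of 0.895. This floxP term averages the differences in mice without and with Cre, so the loss of Egr1 in the knockouts enters it as well. The Cre term is likewise an average over mice without and with floxP sites. All 10 members were positive for floxP with a median of 0.28, beside 21 of 22 reference genes with a median of 0.31. At an unadjusted p of 0.05 the 5 members Slc2a1, Mfsd2a, Pecam1, Flt1 and Nostrin were higher, against 2.63% of all genes. With the covariate 1 of the 7 other members stayed positive. EdgeR called no member for floxP, Cre, the interaction or sex, where 0.00533%, 0.048%, 0.00533% and 0.0746% of all genes were called. At an unadjusted p of 0.05 there were 5, 2, 0 and 1 members, beside 5.39%, 4.24%, 18.8% and 5.92% of all genes, and DESeq2 called none. Without wild-type male 2 Slc2a1 was called for floxP (edgeR adjusted p = 0.0203), beside 0.0104% of all genes.

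Few other genes of the barrier were called in any comparison of females. In floxed against wild-type females edgeR called 0 of 13 further barrier transporters, 0 of 8 tight junction genes, 0 of 16 genes of the Wnt programme that maintains the barrier, 0 of 10 VEGF and angiopoietin ligands and co-receptors, 0 of 10 arterial and venous genes and 0 of 12 mural cell genes. At an unadjusted p of 0.05 these lists had 3, 2, 2, 1, 3 and 2 genes, where 8.93% of all genes reached it. Their median log2FC lay between -0.08 and 0.17, below the 0.43 of the members and the 0.60 of the reference genes. Members and lists were chosen with earlier results of these data known, so this order is a description only. Of 8 other genes of the glucose transporter family none was called either. In Egr1cKO against floxed females the Wnt list had 1 call, Fzd4, the receptor for Norrin and Wnt ligands, which rose (log2FC 1.03, SE 0.15, edgeR adjusted p = 0.0145), from 11.7 to 16.5 CPM in floxed controls to 25.6 to 33.1 CPM in knockouts. In Egr1cKO females against Cre controls Tjp1, the junction scaffold ZO-1, rose (log2FC 0.43, SE 0.09, edgeR adjusted p = 0.0462), as did the VEGF co-receptor Nrp1 (log2FC 0.61, SE 0.13, edgeR adjusted p = 0.0453).

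Genes that respond to glucocorticoids were counted in the same females. In floxed against wild-type females 15 of 17 were positive with a median log2FC of 0.25 and 0 called by edgeR. An unadjusted p of 0.05 was reached by 7 of them and by 8.93% of all genes. In Egr1cKO females against Cre controls 15 of 16 were positive, with a median of 0.58, and Tsc22d3 (log2FC 0.89), Per1 (0.62) and Klf9 (0.49) were called (edgeR adjusted p = 0.0413, 0.0133 and 0.034). Of all genes 1.81% were called there. In Egr1cKO against floxed females 9 of 17 were positive with a median of 0.05, and in Cre controls against wild-type females 5 of 17 with a median of -0.22. EdgeR called none of the list in either of these, where 5 genes each reached an unadjusted p of 0.05, beside 18.4% and 7.45% of all genes. Their summed level in females was 965 to 1150 CPM in wild-type mice, 776 to 982 in Cre controls, 1110 to 1300 in floxed controls and 1050 to 1440 in knockouts. Hypoxia genes had 7 of 11 positive estimates in floxed against wild-type females, with a median of 0.10, and their summed level of 816 to 871 CPM in floxed controls did not overlap the 731 to 809 CPM of wild-type females. In Egr1cKO against floxed females the astrocyte markers had 7 of 7 positive estimates with a median of 0.34. The water channel Aqp4 was called (log2FC 0.86, edgeR adjusted p = 0.0316), beside 0.288% of all genes. Their sum was 5490 to 5540 CPM in knockouts and 3660 to 5270 CPM in floxed controls, without overlap, and Slc2a1 is also an astrocyte gene. Oligodendrocyte markers had 0 of 6 positive estimates there, with a median of -0.34, and the myelin gene Mobp was called (edgeR adjusted p = 0.0319). Their sum was 3330 to 4370 CPM in knockouts, 4800 to 5620 CPM in floxed controls, 4020 to 4500 CPM in wild-type females and 3880 to 5930 CPM in female Cre controls. The part of these genes and cells in the members' results was not tested. Plvap, the marker of fenestrated endothelium, was at 4.5 to 8.7 CPM, and mural cell markers summed to 181 to 277 CPM.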

How the data were processed

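Polyadenylated RNA of 24 mouse hippocampi was sequenced without strand information, per the labels. The deposited table holds raw counts per Ensembl gene that the authors made after trimming and alignment with STAR to GRCm38 (the submitters' processing notes name Trim Galore 3.8.2, STAR 2.7.9 and FastQC). The counting annotation is not given in the sources used here. Symbols and positions came from GENCODE on GRCm38, with a symbol for 36493 of 36605 genes, and promoters from RefSeq GRCm38.p6.

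Genes were tested with edgeR 4.0.16 in R 4.3.3 (quasi-likelihood F test on the deposited counts, TMM scaling, filterByExpr at a minimum count of 10 on the mice compared, sex as a term where both sexes entered, Benjamini-Hochberg adjustment over all genes kept). A gene was called at a change of 1.2-fold or more whose adjusted p did not exceed 0.05, and in the factorial fit at the adjusted p alone. All 10 members passed the filter in every comparison. Levels are CPM with TMM factors from 19742 genes, and log2 levels add 0.5 CPM. Permutation tests drew 100000 resamples, so 1e-05 is the smallest p they can give. A correlation with the reference level was planned over all 24 mice. It is also given within the 19 mice of the upper cluster, split at the largest gap after the levels were seen. Code was tested on simulated data. Alternatives were DESeq2 1.42.0, its size factors in edgeR, no filter, no minimum fold, a replicate block, 1 fit of all mice, the reference level as a covariate, no term for sex, leaving out the choroid-high mice and leaving out each mouse. Depth limits precision most for Nostrin, at 27 to 176 counts a mouse.

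The members and gene lists were chosen with earlier results of these data known. Named genes were all members, called genes of the other lists (at most 4 a list and comparison) and the 5 genes most like Slc2a1, Mfsd2a, Nostrin and Pecam1. Flt1's promoter was chosen after its motifs were seen. No 2 libraries of the same genotype and sex agreed within sampling noise.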

Additional observations from a re-analysis of the deposited data

Results flagged for a closer look

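Slc2a1 in wild-type male 2 stood at 90.2 CPM, while the other 5 wild-type mice lay between 43.2 and 58.8 CPM, and its gap to the nearest was 0.667 of the range of the group. Without it the estimate for floxP in males went from -0.02 to 0.23 on the log2 scale. Pecam1 in Egr1cKO female 3 stood at 19.3 CPM, with the other 5 knockouts between 13 and 15.3 CPM and a gap of 0.638 of the range. Both values exceed Dixon's limit for 6 samples. They are 2 of 40 groups examined, and chance marks about 1 in 20.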

How the results depend on the processing

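How many of the 10 members were called depended on the setting, and the cause was not tested. Without the filter on low counts edgeR called 2 members for floxed controls against wild-type mice of both sexes, 1 for Cre controls, 3 for Egr1cKO mice against floxed controls and 3 against Cre controls. In females these numbers were 4, 1, 5 and 6, and 1 for the difference of the floxP effect between the sexes. In the factorial fit they were 3 each for floxP, Cre and the interaction. In these fits 0.143% to 4.14% of all genes were called. DESeq2 called 1 for Egr1cKO mice against Cre controls of both sexes and, in females, 2 for floxP, 1 for Cre, 3 for the knockouts against floxed controls and 3 against Cre controls, beside 0.135% to 6.83% of its genes. One fit of all 24 mice called 1 for Egr1cKO mice against Cre controls of both sexes and 0 for floxP in females, beside 0.0152% and 0% of all genes. The replicate block gave 0 in females for floxP and for the knockouts against Cre controls, but the numbers do not pair the mice (r from -0.191 to 0.183). The block turned Slc2a1 for floxP in males to 0.015, and it turned no other fold change that was recomputed. The covariate gave 0 calls for floxP in females and 3 for the knockouts against Cre controls, beside 0% and 2.94% of all genes.

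With 1 mouse left out, the calls ran from 0 to 2 for floxP in females, 0 to 5 for the female knockouts against floxed controls and 0 to 4 against Cre controls, and from 0 to 1 for both sexes of these 2 comparisons and for floxP in the factorial fit. For floxP in females log2FC then ran from -0.26 to 0.35 for Abcb1a, -0.091 to 0.34 for Slco1a4 and -0.23 to 0.36 for Kdr. For floxP in males it ran from -0.14 to 0.23 for Slc2a1, -0.0013 to 0.27 for Mfsd2a and -0.22 to 0.15 for Nostrin. The covariate turned log2FC for floxP in females to -0.22 for Cldn5, -0.62 for Abcb1a, -0.36 for Slco1a4, -0.12 for Pecam1, -0.18 for Flt1, -0.72 for Kdr and -0.0020 for Tek. Levels relative to the reference stayed within 1 SD of the main setting in 60 of 60 alternatives. That count does not show that each kept its direction.

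With 3 mice of a sex a group the calls depend on single mice, and Nostrin's low counts widen its error. FloxP sites cannot be told apart from the series of mice, and bulk RNA gives no level per endothelial cell.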
